A study of Mus musculus with 2 samples.

Results

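The genes described here encode the cytosolic factors that start and extend protein synthesis, and the enzymes that modify the elongation factors. They were chosen by symbol alone: every gene with at least 1 protein_coding transcript whose symbol begins with Eif1 to Eif6, Eef1 or Eef2, leaving out Eif4e, its binding proteins, the Eif2 kinases and symbols marked as pseudogenes. The rule gave 60 genes among 55536 annotated genes, of which 21901 have a protein_coding transcript. The series held 1 group of 2 total RNA libraries of gastrocnemius, the fast calf muscle, from male 5xFAD/CAST mice between 8 and 10 months of age. The 5xFAD line expresses mutant human transgenes from a neuronal promoter and serves as a model of amyloid deposition, while CAST stems from wild mice of the subspecies castaneus. Both libraries therefore carried the same labelled genotype, and no wild-type or younger group was analysed here. They are labelled biological replicates 1 and 2 and have different biosample entries but the same donor entry, and the labels do not say whether they are separate animals. With 1 library on each side no test was possible, and all values are descriptions of these libraries.

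Translation in the cytosol begins when Eif2, bound to GTP and the initiator tRNA, joins the small ribosomal subunit with Eif1, Eif1a, Eif3 and Eif5. The cap complex, with the helicase Eif4a and the scaffold Eif4g, brings this assembly to the mRNA, and scanning ends at the start codon. Eef1a then delivers each aminoacyl-tRNA, Eef1b2, Eef1d and Eef1g recharge it with GTP, and Eef2 moves the ribosome along. In striated muscle and neurons Eef1a2 takes the place that Eef1a1 holds in most tissues.

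Whether reads can be assigned to a paralog depends on how far the sequences differ, so the first 90 coding bases of the pairs that the results turn on are printed here. They come from the GENCODE M21 transcripts (mm10), counted from 1 at the start codon, and capitals mark the bases that differ within each pair. Here and below, sequences and identities are those of the reference, and CAST alleles in these libraries were not examined. Eef1a2 lies on chromosome 2 (181147653 to 181157014) and Eef1a1 on chromosome 9 (78478449 to 78489151), and 15 of the 90 bases differ.
Eef1a2: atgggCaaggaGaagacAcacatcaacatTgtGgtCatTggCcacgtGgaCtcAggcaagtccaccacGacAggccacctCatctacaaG
Eef1a1: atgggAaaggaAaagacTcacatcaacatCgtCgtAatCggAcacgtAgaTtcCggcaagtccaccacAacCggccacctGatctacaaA
Eif2s3x on the X chromosome (94188707 to 94212862) and Eif2s3y on the Y chromosome (1010543 to 1028847) differ at 16 of the 90.
Eif2s3x: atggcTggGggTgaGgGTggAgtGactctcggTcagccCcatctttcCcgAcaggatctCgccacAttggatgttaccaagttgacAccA
Eif2s3y: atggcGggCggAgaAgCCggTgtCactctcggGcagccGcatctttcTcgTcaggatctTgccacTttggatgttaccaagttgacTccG

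Over the whole coding sequence Eef1a2 and Eef1a1 were identical at 80.1% of 1386 aligned bases, with no identical stretch longer than 23 bases. Eif2s3x and Eif2s3y were identical at 86.3% of 1416 bases, with a longest stretch of 34. The other pairs with high identity were Eif1ax and Eif1a (85.6%), Eif1 and Eif1b (81.1%) and Eif4a2 and Eif4a1 (78.0%). Eif3j2 and Eif3j1 stood apart from them: 781 of 783 aligned bases were identical, in 1 unbroken stretch, so reads within their coding sequences cannot be told apart and their division is uncertain. The deposited posterior SD, which measures how uncertain the division of a read count is, reached at most 2.92% of the count for any of the 55 factor genes whose mean count reached 100, in Eif4a1. It exceeded 5% for 0 of these 55 genes, against 2.88% of all 9741 genes with that mean count. For the whole genes Eif3j2 and Eif3j1 it was at most 1.33% and 1.82%. The SD does not cover differences between deposited quantifications. Eif4a-ps4, a pseudogene 99.9% identical to Eif4a1, had 317 and 99.0 counts in this one and 531 and 380 in another.

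Nearly all factors were expressed. Of the 60 genes, 57 reached 1 TPM (a level scaled for transcript length and library depth) in both libraries, against 46% of all genes with a protein_coding transcript. The median factor gene stood at 34.2 TPM in replicate 1 and 32.2 TPM in replicate 2. The 10370 protein-coding genes with a mean of at least 1 TPM had medians of 8.09 and 7.35 TPM. Together the factors took 268590 of 35163970 expected counts in replicate 1 (0.764%) and 264966 of 35412240 in replicate 2 (0.748%).

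Mean levels ran from 0.015 TPM for Eef1akmt3 to 898 TPM for Eef1a2. Eef1a2, Eif1 and Eef2 held 42.2% of the factors' summed TPM in replicate 1 and 41.6% in replicate 2. Eef1a2 ranked 39th and 37th among nuclear protein-coding genes. Of the 59 neighbouring pairs in the order of mean TPM, 24 had ranges over the libraries that did not overlap. The first 4 places, Eef1a2, Eif1, Eef2 and Eif4g2, were each separated from the next, while Eef1g, Eif4g1, Eif5a, Eef1a1 and Eif4a2, which followed, each overlapped with the next, and Eif4a2 was separated from Eef1b2 below it. The 3 genes under 1 TPM were Eif5a2 (0.37 and 0.29 TPM), Eef1akmt3 (0.03 and 0 TPM) and Eif4e1b (0 and 0.04 TPM). Eef1akmt3 had 2 and 0 expected counts and Eif4e1b 0 and 2, and at this depth a count of 0 allows up to 3 counts.

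**Figure D1:**
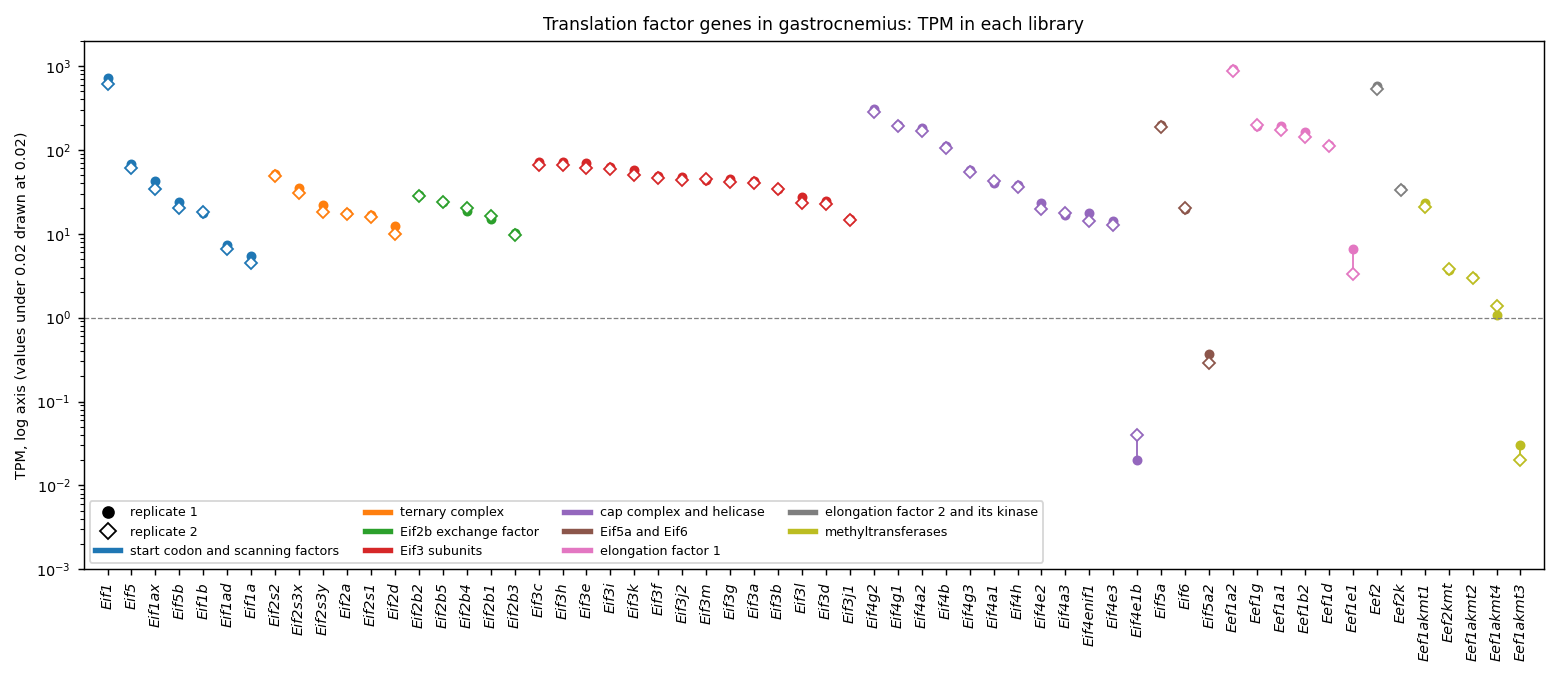
Deposited TPM (log axis) of the 60 factor genes in replicate 1 (filled circles) and replicate 2 (open diamonds), grouped by role and ordered by mean TPM within each role; the dashed line is 1 TPM. Eef1a2, Eif1 and Eef2 lie at the top, 57 genes lie above the line in both libraries, and the marks of the replicates nearly coincide for most genes.

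The 7 genes of start codon selection and scanning summed to 881 TPM in replicate 1 and 757 TPM in replicate 2, most of it from a single gene. Eif1, which keeps the scanning ribosome open until it meets a start codon, stood at 717 and 612 TPM. Its paralog Eif1b had 17.9 and 18.2 TPM, so Eif1 held 97.3 ± 0.32% of their sum (SD, n = 2 libraries). Eif5, the GTPase activator of Eif2, had 67.0 and 61.1 TPM. Eif1ax, the X-linked form of the scanning factor Eif1a, had 42.7 and 34.5 TPM, and the autosomal Eif1a 5.50 and 4.49 TPM. Both of these paralogs were higher in replicate 1 on this scale, and Eif1ax held 88.5 ± 0.082% of their sum.

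The levels of Eif1 and Eif1ax depended on short transcripts without a coding sequence. Eif1-202, a processed transcript of 383 bases, held 53.1% and 49.3% of Eif1 TPM in the RSEM transcript table, but only 21.1% of Eif1's expected counts in replicate 1. The coding transcript Eif1-201 had 327 and 301 TPM there and 300 and 289 TPM in the kallisto-layout table, a separate deposited quantification of the same libraries. The 2 tables thus lay close for the coding transcript, while the whole gene had 717 and 612 TPM in the first and 1120 and 987 TPM in the second. Eif1ax showed the same feature in the other direction. Its retained-intron transcript Eif1ax-202 (416 bases) held 50.4% and 46.0% of the gene's TPM in the RSEM table and 8.16% and 5.49% in the kallisto-layout table. The coding transcript Eif1ax-201 had 21.2 and 18.6 TPM in the former and 19.2 and 17.3 TPM in the latter.

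The ternary complex, which carries the initiator tRNA, was far less abundant as RNA than the elongation factors. Its genes, grouped here with Eif2a and Eif2d to make 6, summed to 156 and 141 TPM. Eif2s2, the beta subunit, was the highest with 51.9 and 49.4 TPM. The alpha subunit Eif2s1, whose phosphorylation by the Eif2 kinases lowers initiation, had 16.5 and 15.7 TPM. The gamma subunit is encoded on both sex chromosomes: Eif2s3x had 35.4 and 30.9 TPM and Eif2s3y 22.3 and 18.0 TPM. Eif2s3x exceeded Eif2s3y 1.59-fold in replicate 1 and 1.72-fold in replicate 2. Their sum lay near the level of Eif2s2 and above that of Eif2s1. Eif2a and Eif2d, factors of alternative tRNA delivery, made up the rest, between 9.90 and 17.5 TPM.

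Eif2b, the exchange factor that reloads Eif2 with GTP, was expressed at 9.55 to 29.1 TPM per subunit. The catalytic epsilon subunit Eif2b5 had 23.9 and 23.8 TPM. Eif2b2, the beta subunit, was the highest of the 5 at 29.1 and 28.2 TPM, and Eif2b3, the gamma subunit, the lowest at 10.1 and 9.55 TPM. Eif2b4, the delta subunit, had 18.7 and 20.5 TPM and Eif2b1, the alpha subunit, 14.8 and 16.4 TPM. The place of Eif2b2 rested on short retained-intron transcripts: counting protein_coding transcripts alone, it had 13.7 and 14.4 TPM, and its share of the 5 genes' TPM was 18.0% in place of 29.4%. By expected counts, not scaled for length, Eif2b5 led with 36.3% and Eif2b2 had 17.4%.

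The 14 genes of Eif3, the large scaffold of initiation, had mean levels from 14.8 to 69.6 TPM. Their highest and lowest mean TPM differed 4.71-fold, and they summed to 664 and 615 TPM. Eif3c, a core subunit, led with 72.5 and 66.8 TPM, followed by Eif3h (72.5 and 65.7 TPM) and Eif3e (70.6 and 61.2 TPM), and these 3 overlapped in their ranges. Eif3i had 63.1 and 58.8 TPM and Eif3k 57.7 and 49.5 TPM. The core subunits Eif3a and Eif3b had 42.5 and 40.8 TPM and 33.9 and 34.0 TPM. Eif3j2 had 47.5 and 43.8 TPM and Eif3j1 15.1 and 14.5 TPM, the pair whose coding sequences are nearly the same. Per expected count their gap was smaller: Eif3j2 held 57.8% of the pair's counts but 75.5 ± 0.57% of its TPM. In the kallisto-layout table it held 75.2% of the pair's TPM.

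Among the 12 genes of the cap complex, the scaffolds Eif4g2 and Eif4g1 and the helicase Eif4a2 stood highest. Eif4g2, a scaffold that lacks the cap-binding part and serves cap-independent initiation, had 305 and 279 TPM. Eif4g1, the main scaffold of cap-dependent initiation, had 199 and 190 TPM and Eif4g3 57.8 and 55.1 TPM. Eif4g2 held 53.8 ± 0.70% of the 3 scaffolds' TPM, but 43.9% of their expected counts, which are not scaled for length. Eif4b, a cofactor of the helicase, had 110 and 106 TPM.

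Eif4a2 was the main helicase gene, with 184 and 169 TPM, against 40.7 and 42.2 TPM for Eif4a1 and 16.7 and 17.5 TPM for Eif4a3, which belongs to the exon junction complex. Eif4a2 held 75.1 ± 1.67% of the sum of the 3. With protein_coding transcripts alone the share was 62.6%. Of the cap-binding homologues, Eif4e2 had 23.0 and 19.7 TPM, Eif4e3 14.3 and 12.8 TPM, and Eif4e1b, known from oocytes, was at or near 0.

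Much of the Eif4a2 TPM outside protein_coding transcripts lay in a transcript that skips an exon. Eif4a2-210, annotated as a target of nonsense-mediated decay, was the leading Eif4a2 transcript in the RSEM table, with 40.4% of the gene's TPM in replicate 1 and 45.3% in replicate 2. In the kallisto-layout table it had 19.7% and 21.4%. It lacks exon 4 of the coding transcript Eif4a2-203, at chr16:23109120-23109259 (mm10, plus strand), which is printed here because the transcripts divide on it.
Eif4a2 exon 4: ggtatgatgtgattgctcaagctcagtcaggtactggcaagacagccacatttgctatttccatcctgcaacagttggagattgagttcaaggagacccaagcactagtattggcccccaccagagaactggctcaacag
This stretch encodes the ATP-binding motif of the helicase. Its length of 140 bases is not a multiple of 3 (remainder 2), so leaving it out shifts the reading frame, and the annotated stop of Eif4a2-210 follows at 23110065 to 23110067. Eif4a2-210 then has 291 coding bases, against 1224 in Eif4a2-203.

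Of the Eif4a2 transcripts that span this place, 8 contain the exon and 8 do not. Those without it held 42.7% of their TPM in replicate 1 and 46.5% in replicate 2 by the RSEM table, and 33.6% and 39.3% by the kallisto-layout table. Both tables gave a higher share without the exon in replicate 2. These shares are estimates that divide reads common to several transcripts, and the tables hold no reads over the junctions themselves. Eif4a2-203 is annotated with 0 bases after its stop codon, which ends at 23113311. Eif4a2-210 has 1429 bases after its own earlier stop, and part of these are coding in Eif4a2-203. Eif4a2-201, which contains the exon, has 636 bases after its stop. Reads downstream of the coding sequence can thus be assigned to Eif4a2-210 or Eif4a2-201 but not to Eif4a2-203. The part of this in the shares was not tested. A snoRNA gene inside Eif4a2, Gm26447, had 373 and 385 expected counts.

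Eif5a, which helps ribosomes through difficult stretches of peptide and carries the amino acid hypusine, had 197 and 190 TPM. Its paralog Eif5a2 was at 0.37 and 0.29 TPM, with 47 and 39 expected counts, so Eif5a held 99.8 ± 0.024% of their sum. Eif6, which keeps the large ribosomal subunit from joining too early, had 19.7 and 20.2 TPM in the RSEM table and 39.1 and 38.9 TPM in the kallisto-layout table. Its protein_coding transcripts differed in the same direction, with 12.6 and 16.6 TPM in the former and 20.02 and 23.13 TPM in the latter. Of these, Eif6-201 had 12.4 and 15.0 TPM against 8.64 and 12.03 TPM, and the short Eif6-204 (373 bases) 0 and 1.28 TPM against 11.2 and 10.8 TPM.

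Elongation factor 1 was the most abundant group, with 1591 and 1506 TPM over 6 genes. Eef1a2 had 919 and 877 TPM and Eef1a1 192 and 172 TPM. The ranges did not overlap: Eef1a2 exceeded Eef1a1 4.78-fold in replicate 1 and 5.10-fold in replicate 2, and held 83.2 ± 0.65% of their sum. The kallisto-layout table gave Eef1a2 a share of 78.2% and 78.6%. Of the subunits that recharge Eef1a with GTP, Eef1g had 194 and 201 TPM, Eef1b2 164 and 143 TPM and Eef1d 115 and 110 TPM. In the RSEM gene table the range of Eef1g lay above that of Eef1a1, and those of Eef1b2 and Eef1d lay below it. Eef1g and Eef1a1 overlapped in the kallisto-layout table (228 and 235 TPM against 242 and 233 TPM). They also overlapped by RSEM TPM of protein_coding transcripts alone (175 and 176 TPM against 188 and 164 TPM). Eef1b2 overlaps Ndufs1 on the opposite strand, a gene with 9515 and 8893 expected counts. Eef1e1, a component of the aminoacyl-tRNA synthetase complex, had 6.59 and 3.30 TPM.

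Both Eef1a forms are read in a tissue that also holds vessels, fat and other cells, and in bulk samples fewer cells of a type and less RNA per cell cannot be told apart. All 6 muscle fibre markers (Acta1, Ckm, Myh4, Tnnt3, Atp2a1 and Pvalb) were abundant, with medians of 15147 and 14548 TPM. The 5 endothelial markers summed to 54.9 TPM in replicate 1 and 39.8 TPM in replicate 2, and the 5 adipocyte markers to 205 and 151 TPM. By log2 ratio of counts, all 5 endothelial markers and 4 of 5 adipocyte markers were lower in replicate 2, Cfd (0.26) being the exception. Fibroblast markers did not share this: 4 of 5 were higher in replicate 2 (median 0.058), with Col1a1 at 0.33 and Col1a2 at 0.36. Smooth muscle and pericyte markers (3 of 5 lower, median -0.22) and leukocyte markers (3 of 5 lower, median -0.051) were mixed. The 3 erythroid markers were lower (median -0.29), as were 3 of 4 satellite cell and 2 of 3 Schwann cell markers. No marker of these lists was at 0 in both libraries. Eef1a1 was lower in replicate 2 as well, with 7555 and 6633 expected counts, while Eef1a2 had 46634 and 47263. The part of the other cell types in the level of Eef1a1 was not tested.

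Eef2, the translocase, had 584 and 537 TPM, nearly all of it (99.5% and 99.3%) in the coding transcript Eef2-201. Eef2k, the kinase that inhibits it, had 34.5 and 33.5 TPM. The methyltransferases of the elongation factors were low. Eef1akmt1, which acts on Eef1a, was the highest at 23.2 and 20.7 TPM, and Eef2kmt, which acts on Eef2, had 3.73 and 3.81 TPM. The other 3 lay between 0 and 3.05 TPM. Eef1akmt3 overlaps Mettl1 on the opposite strand, which had 162 and 158 expected counts.

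**Figure D2:**
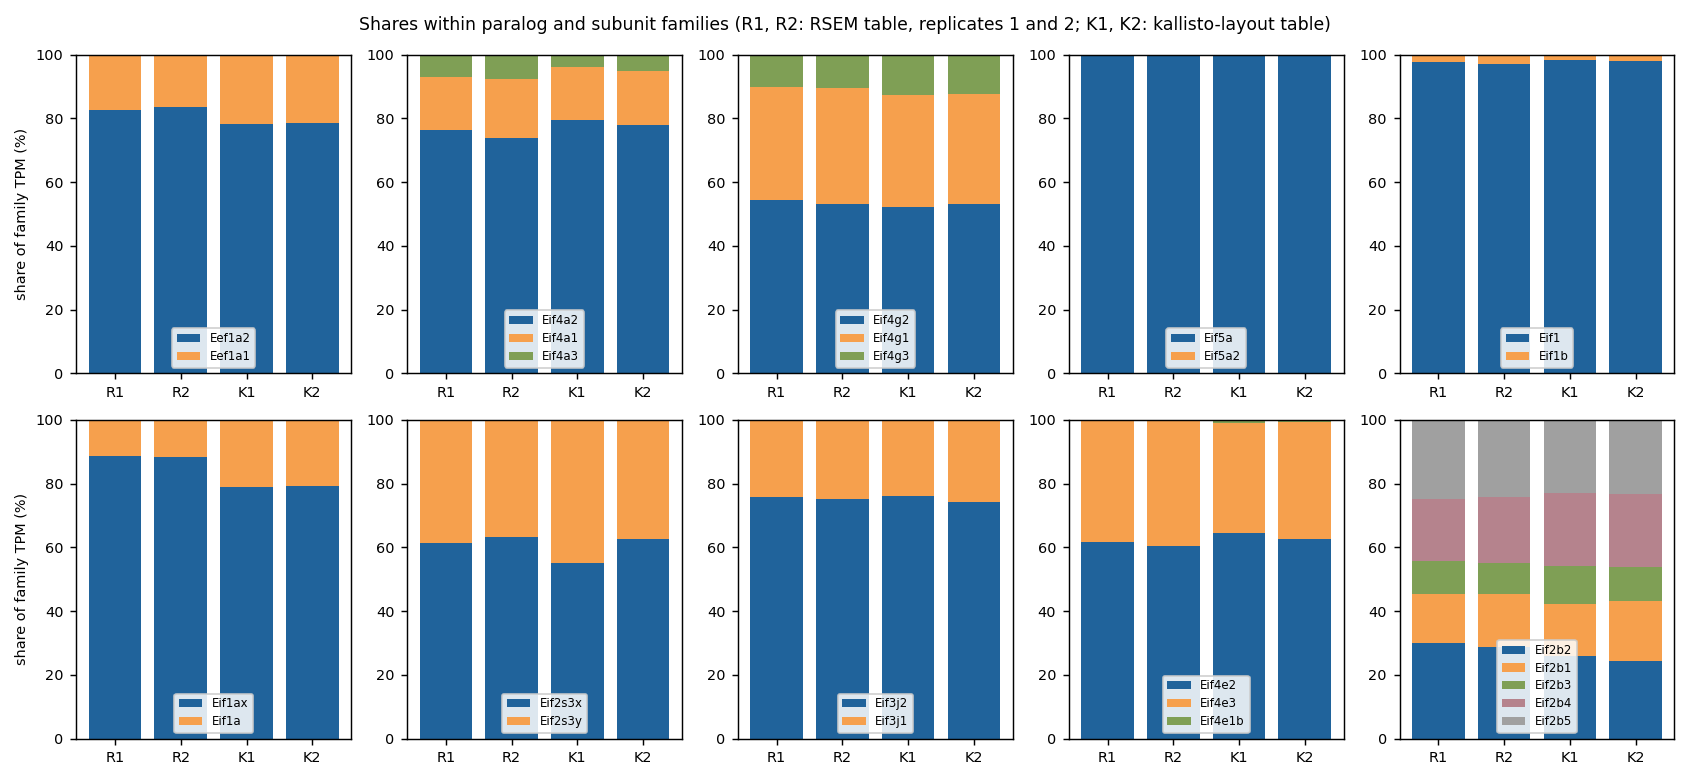
Share of each gene in the summed TPM of its family (percent), for replicates 1 and 2 in the RSEM gene table (R1, R2) and in the kallisto-layout table (K1, K2). In each 2-gene panel the lower segment is the larger, and Eif1ax and Eef1a2 have a smaller share in the kallisto-layout table than in the RSEM table.

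The leading gene of each of the 10 families was the same in both tables and both libraries. The narrowest lead was that of Eif2b2, which held 30.1% and 28.6% of Eif2b TPM in the RSEM table and 25.9% and 24.5% in the kallisto-layout table. The widest move between tables was that of Eif1ax, from 88.5% in the RSEM table to 79.0% in the kallisto-layout table. Of the 57 genes with a mean of at least 1 TPM, 2 were at least 1.5-fold higher in the kallisto-layout table in both libraries, Eif1 and Eif6, against 1.28% of protein-coding genes. Eif1ax alone was at least 1.5-fold lower, against 0.714%.

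Most factor genes had nearly all of their TPM in protein_coding transcripts, as most other genes had. The median share of a gene's TPM in protein_coding transcripts was 95.4% and 95.2% over the 57 factor genes, and 95.2% in both libraries over all protein-coding genes at this level. For 52 of the 57 the same transcript led in both libraries, and for 45 it also led in both quantifications. A leading transcript held at least 50% in both libraries for 42 genes and at least 90% for 21. In 10 genes under 80% of TPM lay in protein_coding transcripts in both libraries, and in 6 of them this held in both quantifications. The counts of leading transcripts and of genes under 80% were not made over all genes, so they do not set the factors apart.

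**Figure D3:**
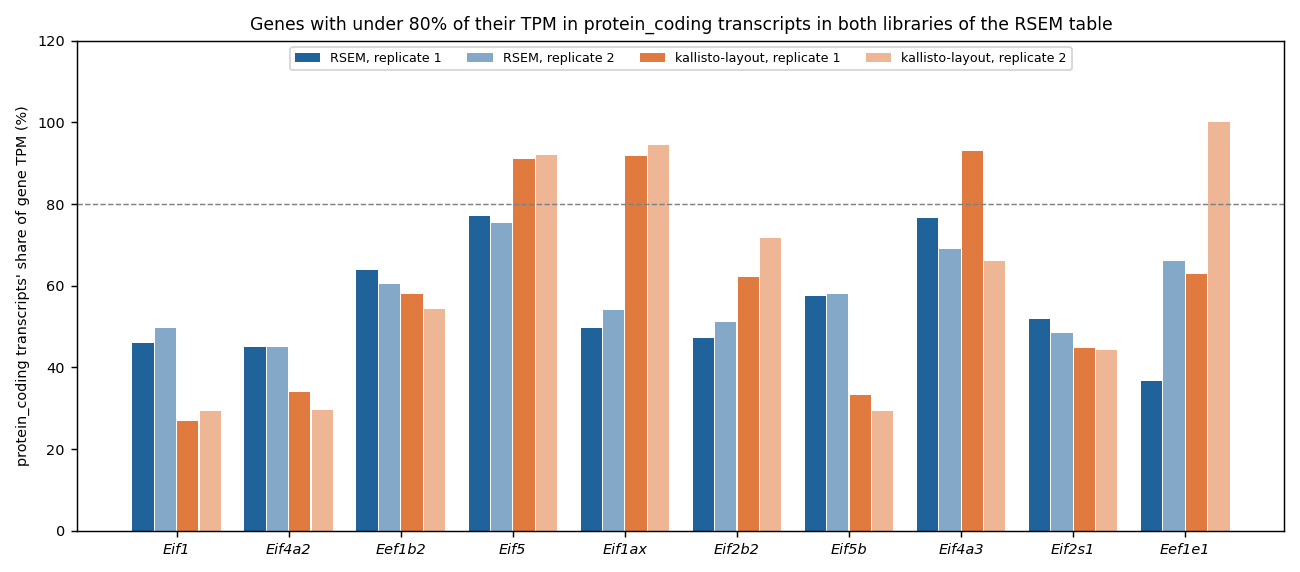
Share of each gene's TPM in protein_coding transcripts (percent) for the 10 factor genes under 80% (dashed line) in both libraries of the RSEM table, ordered by mean TPM; blue bars are the RSEM table and orange bars the kallisto-layout table, dark for replicate 1 and pale for replicate 2. Eif1, Eif4a2, Eef1b2, Eif2b2, Eif5b and Eif2s1 stay under the line in all 4 bars, while Eif5 and Eif1ax rise above it in the kallisto-layout table.

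For Eef1b2 both tables lay close in the coding share, with 63.8% and 60.3% coding TPM in the RSEM table and 58.0% and 54.4% in the kallisto-layout table. Its decay-annotated transcript Eef1b2-205 held 23.4% and 24.5% of RSEM TPM. The tables differed in 2 other decay-annotated transcripts. Eef1b2-206 held 0% by RSEM but 20.8% and 22.9% in the kallisto-layout table. Eef1b2-208 held 11.5% and 14.0% by RSEM but 0% in the kallisto-layout table. For Eif2s1 the processed transcript Eif2s1-203 (433 bases) held 47.7% and 51.4%, and for Eif5b the coding transcript Eif5b-201 held 57.5% and 57.9% by RSEM but 33.2% in replicate 1 of the kallisto-layout table. By expected counts, 91.3% of Eif2s1 in replicate 1 came from its coding transcript Eif2s1-201. For short transcripts the TPM share and the count share therefore differ widely. Counting protein_coding transcripts alone changed the order at the top: Eef2 (581 and 534 TPM) then preceded Eif1 (330 and 303 TPM), and Eif4a2 had 82.7 and 75.8 TPM.

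The 2 libraries differed little in these genes. After TMM scaling, a correction for depth and composition, the log2 ratio of counts in replicate 2 over replicate 1 had a median of 0.036 over the 55 factor genes whose mean count reached 100, and of 0.0016 over all 9741 genes. The median absolute log2 ratio was 0.061 for the factors and 0.088 for all genes. In either direction 0 of 55 differed by at least 25% (the higher over the lower), against 7.63% of all genes (3.27% higher and 4.35% lower in replicate 2). At least 1.5-fold apart were 0 of 55, against 1.22% (0.626% higher and 0.595% lower). The factor genes were more abundant, with a median mean count of 1990 against 534. Where the mean count reached 1000, 1.99% of 3121 genes differed by at least 25%, and 0 of 37 factor genes did.

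The ratios ran from -0.30 for Eef1e1 (207 and 162 counts; exact binomial 95% interval -0.61 to 0.0018) to 0.31 for Eif6 (519 and 620 counts; 0.14 to 0.48). These intervals cover counting error only. For 12 of the 55 genes the interval left out 0, a share not above the 24.3% of all genes. Of these, 10 were higher in replicate 2, among them Eef1g at 0.16 (interval 0.11 to 0.20), Eif3b at 0.14 and Eif4a1 at 0.14. The other 2 were lower, Eef1a1 at -0.14 (-0.18 to -0.088) and Eif2d at -0.18. No such split by direction was counted over all genes. Eif4a1 had 1638 and 1738 counts, while its pseudogene Eif4a-ps4, 99.9% identical, had 317 and 99.0. The part of read division between these 2 in the ratio of Eif4a1 was not tested. Eef1a1 and Eif2d stayed below 0 in each of the 6 scalings and tables tried.

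All 5 Eif2b genes were above 0 in replicate 2, from 0.097 for Eif2b5 to 0.22 for Eif2b4, as were 37 of the 55 factor genes and 50.7% of all genes. The counting intervals of Eif2b5, Eif2b1 and Eif2b3 included 0. All 5 were above 0 also with DESeq2 size factors, library totals, spike-in totals and the kallisto-layout counts, but on deposited TPM 2 were above 0 and 3 below. Over all genes, library totals moved the median log2 ratio to -0.060, spike-in totals to 0.094 and deposited TPM to -0.13. The medians of the 55 factor genes under these scalings were -0.026, 0.13 and -0.086. For Eif3 the signs followed the scaling: of the 14 genes, 10 were above 0 with TMM, 14 with spike-in totals, 4 with library totals and 2 on deposited TPM.

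**Figure D4:**
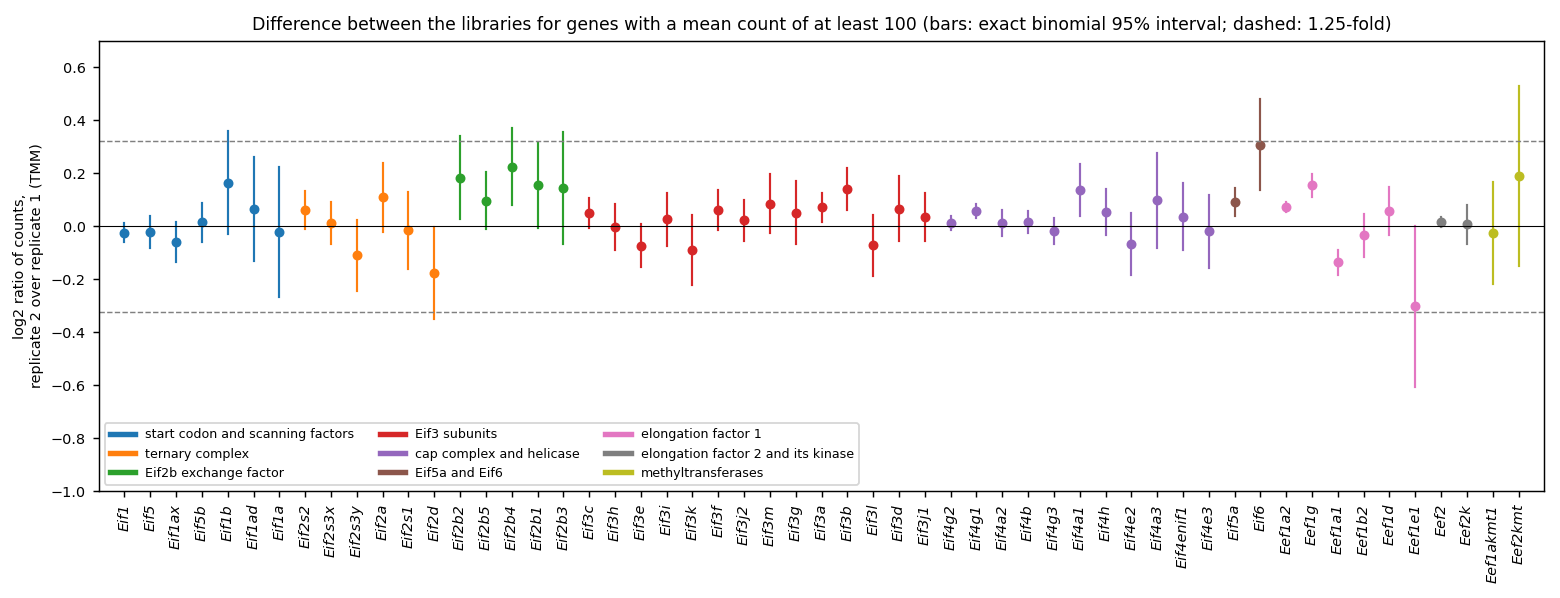
Log2 ratio of counts, replicate 2 over replicate 1, after TMM scaling (points) with exact binomial 95% intervals for counting error (bars) for the 55 factor genes whose mean count reached 100, coloured by role; dashed lines mark a 25% difference. Every point lies between the dashed lines, all 5 Eif2b genes lie above 0, and Eef1e1 and Eif6 lie nearest the lines.

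Level and count diverged most for Eef1e1. Its TPM went from 6.59 to 3.30, a log2 difference of -0.98, while its expected counts went from 207 to 162. The short retained-intron transcript Eef1e1-203 (533 bases) went from 2.90 to 0.70 TPM, and the coding transcript Eef1e1-201 from 2.41 to 2.19 TPM. The coding transcript thus lay close in both libraries.

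The promoters of these genes were compared with all others in the RefSeq table (GRCm38.p6), which held 46 of the 60 genes. The feature sought was a C at the annotated start followed by at least 4 pyrimidines, on the gene's strand, as in the terminal oligopyrimidine tract that mTOR-regulated mRNAs of the translation machinery carry. It was found at the annotated start of 2 of the 46 (4.35%), Eif3f and Eif2s3x, against 3.01% of 27025 genes. TATAA on the gene's strand between positions -60 and 50 around the start was found in 3 of the 46 (6.52%), against 8.68%. These 3 were Eef2, Eif1 and Eef1a1. The 60 bases around the start of all 5, 30 on each side, are shown because they are the only factor genes in the table with either feature, which is in capitals.
Eif3f, chr7:108934385-108934444, plus strand: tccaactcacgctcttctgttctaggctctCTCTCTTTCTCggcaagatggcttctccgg
Eif2s3x, chrX:94212622-94212681, minus strand: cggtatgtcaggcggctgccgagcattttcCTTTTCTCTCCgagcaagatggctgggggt
Eef2, chr10:81176601-81176660, plus strand: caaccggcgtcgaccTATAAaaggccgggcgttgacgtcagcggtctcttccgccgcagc
Eif1, chr11:100319919-100319978, plus strand: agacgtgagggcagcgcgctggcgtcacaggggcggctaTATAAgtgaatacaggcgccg
Eef1a1, chr9:78481695-78481754, minus strand: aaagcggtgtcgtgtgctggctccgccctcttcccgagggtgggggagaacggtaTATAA
In Eef2 the match begins 15 bases before the annotated start, while in Eif1 it begins at position 10 and in Eef1a1 at position 26 after it. An annotated start can lie some bases from the start in use, so a missing match says only that these letters are not at that position.

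Other genes of translation, listed by symbol, were all expressed below Eef1a2 and Eef2. Of 37 such genes, 35 reached 1 TPM in both libraries, against 46% of all genes with a protein_coding transcript. Pabpc4, a poly(A)-binding protein, was the highest with 153 and 133 TPM, above Pabpc1 with 47.3 and 45.1 TPM. Mknk2, a kinase that phosphorylates the cap-binding protein, had 116 and 105 TPM and its paralog Mknk1 12.8 and 11.3 TPM. The release factors Etf1 and Gspt1 had 38.8 and 35.1 TPM and 25.1 and 22.9 TPM. Of the enzymes that make hypusine on Eif5a, Dhps had 16.5 and 14.5 TPM and Dohh 20.9 and 18.2 TPM. The 9 hypusine and diphthamide enzymes had medians of 2.82 and 2.86 TPM, with Dph3 as the highest (54.4 and 53.5 TPM). The mitochondrial elongation factors Tufm and Gfm1 had 51.7 and 53.7 TPM and 47.6 and 48.8 TPM. The median log2 ratio between the libraries over the 31 genes with enough counts was -0.0041, and 1 of them differed by at least 25%, Mtrf1l (92 and 121 counts), a mitochondrial release factor named after its value was seen.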

How the data were processed

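Total RNA of 2 gastrocnemius libraries was made from 300 ng RNA with a directional kit, ribosomal RNA reduction and ERCC spike-ins, per the labels. The deposited gene and transcript tables in RSEM's layout (mm10, GENCODE M21, per the deposited notes) hold the authors' expected counts, TPM and a posterior SD of the count. Deposited estimated counts and TPM in kallisto's layout were summed per gene. Program versions, and any use of strand in counting, were not given in the sources used here. The effective length in the RSEM tables was the transcript length less 100, so short transcripts get high TPM.

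Levels and shares used deposited TPM. Ratios used rounded expected counts, edgeR 4.0.16 TMM factors computed where the mean count reached 10, and a prior of 0.5, with exact binomial 95% intervals (scipy 1.17.1). Genes whose mean count reached 100 entered the counts of differences of 25% and of 1.5-fold. Totals were 35163970 and 35412240 expected counts. The steps were tested on simulated counts that held counting error only, without differences between animals or division of reads between copies. The 25% limit called 25 of 50 genes simulated at 1.25-fold, 27 of 46 at 0.8-fold and 49 of 50 at 1.5-fold. It also called 137 of 9523 unchanged genes. The 60 genes, lists and rules were chosen with earlier results of these data known. Genes named with values are the 20 of highest TPM, members of the 10 paralog families, those called between quantifications and those under 1 TPM; others, and the exon 4, coding-share and pseudogene values, were chosen after their values were seen. Coding-sequence identity from the M21 transcripts replaced the planned protein comparison. As alternatives, libraries were scaled by spike-in or library totals or by DESeq2 1.42.0, and the unit, minimums, table and library used were varied.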

Additional observations from a re-analysis of the deposited data

How the results depend on the processing

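Of the values under alternatives that kept both libraries, 46 moved beyond the spread between the libraries or, for counts, beyond 1.5 times, and 20 did not. The median log2 ratio of the factors (0.036) turned below 0 with library totals and on deposited TPM. It was -0.026 with library totals, 0.128 with spike-in totals, -0.086 and -0.084 on deposited TPM with pseudocounts of 0.1 and 1, and 0.021 with the kallisto-layout counts. The number of factors at least 25% apart was 1 at a mean count of at least 10, 3 with no count filter, and 1 each with library totals, spike-in totals and the kallisto-layout counts. With no filter these included Eif4e1b (0 and 2 counts) and Eef1akmt3 (2 and 0 counts). The shares of all genes were not counted under these alternatives, so these numbers do not set the factors apart. With the kallisto-layout TPM the first gene's share was 78.4% for Eef1a2, 78.7% for Eif4a2, 52.6% for Eif4g2, 98.2% for Eif1, 79.0% for Eif1ax, 58.8% for Eif2s3x, 63.6% for Eif4e2 and 25.2% for Eif2b2. With expected counts, not scaled for length, it was 86.9% for Eef1a2, 43.9% for Eif4g2, 99.2% for Eif5a, 96.6% for Eif1, 91.0% for Eif1ax, 73.8% for Eif2s3x, 57.8% for Eif3j2, 58.1% for Eif4e2 and 17.4% for Eif2b2. With protein_coding transcripts alone, chosen after seeing the data, it was 62.6% for Eif4a2, 94.6% for Eif1, 79.95% for Eif1ax, 60.1% for Eif2s3x, 76.2% for Eif3j2 and 18.0% for Eif2b2. Summed TPM in the kallisto-layout table was 88.5 for Eif2b, 220.5 for Eif5a and Eif6, 1624 for elongation factor 1, 522 for elongation factor 2 and its kinase, 1185 for the start codon factors and 5436 for all. With protein_coding transcripts alone it was 78.2 for Eif2b, 208 for Eif5a and Eif6, 791 for the cap complex and 1453 for elongation factor 1. It was 428.0 for the start codon factors, 129 for the ternary complex grouped with Eif2a and Eif2d, and 4335 for all. The cause of these moves was not tested, apart from the length scaling and transcripts that each alternative leaves out.

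No paired analysis was possible because the series has 1 group. The ratio between libraries uses both and has no value without a library. With 1 library alone the sum over all factors was 4868.5 to 5262 TPM; with 2 libraries, leaving 1 out cannot move a mean beyond their SD, so this is no check of stability. At under 100 counts a 25% difference can be within counting error.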

Other observations

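Annotated pseudogenes that resemble a factor's coding transcript over at least 300 bases at 90% identity or more were counted for 23 of the 60 genes, 79 in all. They held 2668 expected counts in replicate 1 and 2273 in replicate 2, equal to 0.993% and 0.858% of the factors' own counts. Eif1 had the most copies, 19, with 47.1 and 35.2 counts in sum. The 15 copies of Eef1a1 had 318 and 239 counts, or 4.21% and 3.61% of the counts of Eef1a1. The 5 copies of Eef1g had 8.20% and 7.83% of the counts of their parent. A single copy of Eef2, Gm13050, had 1058 and 1006 counts.

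For Eif4a1 the count given to a copy differed widely between libraries and tables. Eif4a-ps4, identical to Eif4a1 at 99.9% of 1218 bases, had 317 and 99.0 expected counts in the RSEM table, and 531 and 380 in the kallisto-layout table. Its 3 copies together came to 19.4% and 5.70% of the counts of Eif4a1 in the former and 25.2% and 17.2% in the latter. Gm2223, identical to Eif2s3x over 1347 bases, had 145 and 92.1 counts. How many of these reads come from the copies was not tested.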
